A study of Homo sapiens with 15 samples.

Results

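The long noncoding RNAs MALAT1, NEAT1, TUG1 and OIP5-AS1 were examined for the RNA that was crosslinked to PHC1, for the RNA crosslinked to RNA polymerase II (RNAPII), for their amount in nuclei and for chromatin at their promoters. They were taken by name as genes known or discussed as nuclear long noncoding RNAs, and they are 4 of the 14432 genes in the deposited tables, of which 907 are annotated as lncRNA. Each was found by its Entrez number, and clusters were assigned to it by the hg19 region that the tables give. RefSeq types TUG1 as protein coding and the other 3 as lncRNA.

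PHC1 is a subunit of Polycomb repressive complex 1, which represses genes on chromatin, and the study asked how RNA binding by PHC1 relates to its place at promoters. HEK293T T-REx cells, a human embryonic kidney line built to carry an inducible transgene, were the source of all 15 samples. In PAR-CLIP, cells take up a photoreactive nucleoside, ultraviolet light crosslinks it to bound protein, and the RNA that comes down with that protein is sequenced; overlapping reads are reported as a cluster. The 2 PHC1 PAR-CLIP libraries came from cells with a PHC1 transgene grown in 100 µg/mL hygromycin, with 4-thiouridine (4SU), and PHC1 was pulled down on streptavidin beads. The RNAPII PAR-CLIP libraries came from cells without a transgene and without hygromycin, with an antibody to the RNAPII C-terminal domain, 1 made with 4SU and 1 with 6-thioguanosine (6SG). All PAR-CLIP cells took up 100 µM of the nucleoside overnight, and light of 365 nm at 0.15 J/cm2 was used for crosslinking. The 2 nuclear RNA libraries and the RNAPII, EZH2, H3K27me3, H3K4me3 and input ChIP libraries (1 each) came from cells without a transgene. ChIP of PHC1 and of PHC1-dFCS was done in 2 libraries each, from cells with the transgene of that name grown in 100 µg/mL hygromycin, on streptavidin beads. PHC1-dFCS is the mutant PHC1 of the study; what the mutation removes is not given in the sources used here. For all ChIP libraries cells were fixed in 1% formaldehyde for 6 minutes. Transgene, hygromycin and capture reagent differ together between the PHC1 libraries and the others of the same assay, the ChIP input included, and cannot be told apart, and the labels do not say whether a transgene line was 1 clone.

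MALAT1 is a stable, mostly unspliced RNA that collects in nuclear speckles, bodies rich in splicing factors. NEAT1 is the scaffold of paraspeckles, nuclear bodies that lie beside speckles and hold a set of RNA-binding proteins; its gene lies next to MALAT1. TUG1 is a spliced RNA found in nucleus and cytoplasm and reported to associate with Polycomb proteins. OIP5-AS1, also called cyrano, is a conserved spliced RNA.

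In hg19 the table regions are chromosome 11, bases 65265233 to 65273939 for MALAT1 (Entrez 378938, 8707 bases), and chromosome 11, bases 65190269 to 65212028 for NEAT1 (Entrez 283131, 21760 bases). TUG1 (Entrez 55000, 9747 bases) spans chromosome 22, bases 31365634 to 31375380. OIP5-AS1 (Entrez 729082, 15595 bases) spans chromosome 15, bases 41576201 to 41591795. The regions run from gene start to gene end and so include introns; exon positions in this build were not used here. RefSeq promoter sequences (GRCh38.p14, 250 bases before to 50 after a start) were matched for MALAT1, TUG1 and OIP5-AS1. MALAT1 has 2 annotated starts, 1307 bases apart in that build. Both are printed because the first MALAT1 RNA that PHC1 crosslinked lay close to that distance from the region start. Capitals mark GC boxes (GGGCGG on either strand) in the upstream promoter, chr11:65497488-65497787 on the plus strand, and the TATA box (TATAAA) in the downstream promoter, chr11:65498795-65499094 on the plus strand.
MALAT1 upstream start: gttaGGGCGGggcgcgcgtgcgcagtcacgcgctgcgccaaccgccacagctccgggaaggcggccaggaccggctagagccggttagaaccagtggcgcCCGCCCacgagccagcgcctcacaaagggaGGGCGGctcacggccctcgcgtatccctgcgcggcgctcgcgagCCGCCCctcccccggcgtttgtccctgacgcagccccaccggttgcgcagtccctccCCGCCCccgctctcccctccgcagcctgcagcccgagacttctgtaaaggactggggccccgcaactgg
MALAT1 downstream start: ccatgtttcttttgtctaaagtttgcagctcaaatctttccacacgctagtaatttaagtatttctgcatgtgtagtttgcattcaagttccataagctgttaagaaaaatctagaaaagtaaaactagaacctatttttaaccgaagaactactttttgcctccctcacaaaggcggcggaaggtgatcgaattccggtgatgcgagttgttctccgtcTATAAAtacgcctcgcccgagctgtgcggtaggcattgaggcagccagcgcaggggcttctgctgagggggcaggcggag
The upstream sequence held 5 GC boxes and 73.7% G and C, and the downstream sequence held 1 TATA box, 30 bases before its start, no GC box and 46.0% G and C. Both strands were searched. Of 35116 RefSeq promoters of 300 bases, 11.5% held TATAAA, 45.0% held GGGCGG and 34.6% held CCAAT. The TUG1 promoter held 4 GC boxes, a pair of them side by side, and 2 CCAAT boxes, and the OIP5-AS1 promoter held 1 GC box and 2 CCAAT boxes. These are matches of letters, not sites of binding.

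Several libraries stood apart before any gene was examined. PHC1 gave 696186 and 698056 clusters, RNAPII gave 667937 with 4SU and 45259 with 6SG. Clusters over 1000 bases numbered 147 in PHC1 replicate 1, 5 in PHC1 replicate 2, 0 with 4SU and 5 with 6SG. The nuclear RNA libraries held 47187882 and 49626658 counted reads. HEK293 markers summed to 282 and 284 counts per 1e6 reads (CPM) in nuclear RNA, and the lists for hepatocytes, blood, fibroblasts and keratinocytes to between 0.0202 and 2.29. The HEK293 markers were not alike. NEFL alone had 141 and 142 CPM. SIX2 had 3.12 and 2.14, LHX1 4.47 and 4.09, and NEFM 0.381 and 0.121, within the range of the other lists. In these bulk samples fewer cells with an RNA and less RNA per cell cannot be told apart.

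MALAT1 was the most covered of the 4 RNAs, and its PHC1 replicates broke it up differently. PHC1 replicate 1 had 4 clusters on MALAT1 and replicate 2 had 55, while RNAPII had 98 with 4SU and 8 with 6SG. The share of the region covered was 79.5% and 65.7% for PHC1, 59.5% for 4SU and 3.51% for 6SG. Among genes with a cluster, MALAT1 had rank 4 by covered share in PHC1 replicate 1, rank 1 in replicate 2 and rank 4 in the 4SU library, against median shares of 1.62%, 1.65% and 2.33%. By clusters per kb it stood at 0.459 in PHC1 replicate 1, rank 5533 of 10901 genes, and at 6.32 in replicate 2, rank 36 of 10688.

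The 4 MALAT1 clusters of PHC1 replicate 1 were 119, 1774, 3246 and 1781 bases wide. In the same order they contained 1, 10, 28 and 17 clusters of PHC1 replicate 2 and 3, 31, 44 and 19 clusters of the 4SU library, counting a cluster in each that it touched. The cluster of 3246 bases was the second widest of any gene in that library by the widest cluster of each gene. In PHC1 replicate 2 the widest MALAT1 cluster had 451 bases, and in the 4SU library 195. The clusters of 1774 bases in replicate 1 and 451 bases in replicate 2 began at the same base, 1460 bases after the region start. The cluster caller is not given in the sources used here, and whether it joined neighbouring clusters in replicate 1 was not tested; the number and mean width on MALAT1, and every fold by cluster number, depend on how clusters were drawn. Replicates 1 and 2 covered much of the same RNA with a different number of pieces: 98.7% of the bases covered in replicate 2 were covered in replicate 1, and 81.6% the other way.

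Number, width and depth were therefore taken apart for each RNA. Summed coverage is the mean coverage of a cluster times its width, added over clusters, and equals cluster number times mean width times mean depth. Between PHC1 replicates 1 and 2 the log2 ratio for MALAT1 was -3.78 in number, 4.06 in mean width, 0.58 in mean depth and 0.85 in summed coverage. Over 5619 genes with at least 10 clusters in both replicates the medians were 0.0, -0.06, 0.03 and 0.03. These are ratios of 1 library to another with no replicate of the ratio. MALAT1 was thus 1.80 times higher in summed coverage in replicate 1, with 0.0727 times the clusters.

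NEAT1 had 119 and 132 clusters in PHC1 replicates 1 and 2, 210 with 4SU and 19 with 6SG. The covered share was 31.8%, 21.2%, 32.6% and 2.95% in the same order. Mean width was 58.2 bases in PHC1 replicate 1, and 34.9, 33.8 and 33.8 bases in the other libraries. Mean depth, the coverage per covered base, was 26.5, 32.1, 40.9 and 57.8. The log2 ratio of PHC1 replicate 1 to replicate 2 was -0.15 in number, 0.74 in width, -0.28 in depth and 0.31 in the sum. In these last 3 libraries NEAT1 clusters were narrower on average than those of the median gene. Each of 10 equal parts of the region held clusters in both PHC1 libraries and with 4SU, while the sparse 6SG library had 0 in the seventh and the ninth part.

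TUG1 had 52 and 68 clusters in PHC1, 94 with 4SU and 5 with 6SG, over 46.9%, 36.3%, 43.2% and 1.91% of its region. Mean width was 87.9, 52.1, 44.8 and 37.2 bases, and mean depth 29.2, 32.9, 76.3 and 59.1. TUG1 was covered nearly alike by PHC1 and by RNAPII with 4SU, but at less depth by PHC1. Its log2 ratio of replicate 1 to replicate 2 was -0.39 in number, 0.75 in width, -0.17 in depth and 0.20 in the sum.

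OIP5-AS1 differed from the other 3 in having more clusters in both PHC1 libraries than with 4SU. It had 53 and 58 clusters in PHC1, 33 with 4SU and 3 with 6SG, over 19%, 20.7%, 8.43% and 0.725% of the region. Mean width was 55.9, 55.6, 39.8 and 37.7 bases, and mean depth 45.9, 43.8, 35.8 and 58.9. The PHC1 replicates lay close in every component, with log2 ratios of -0.13 in number, 0.01 in width, 0.07 in depth and -0.06 in the sum.

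**Figure D1:**
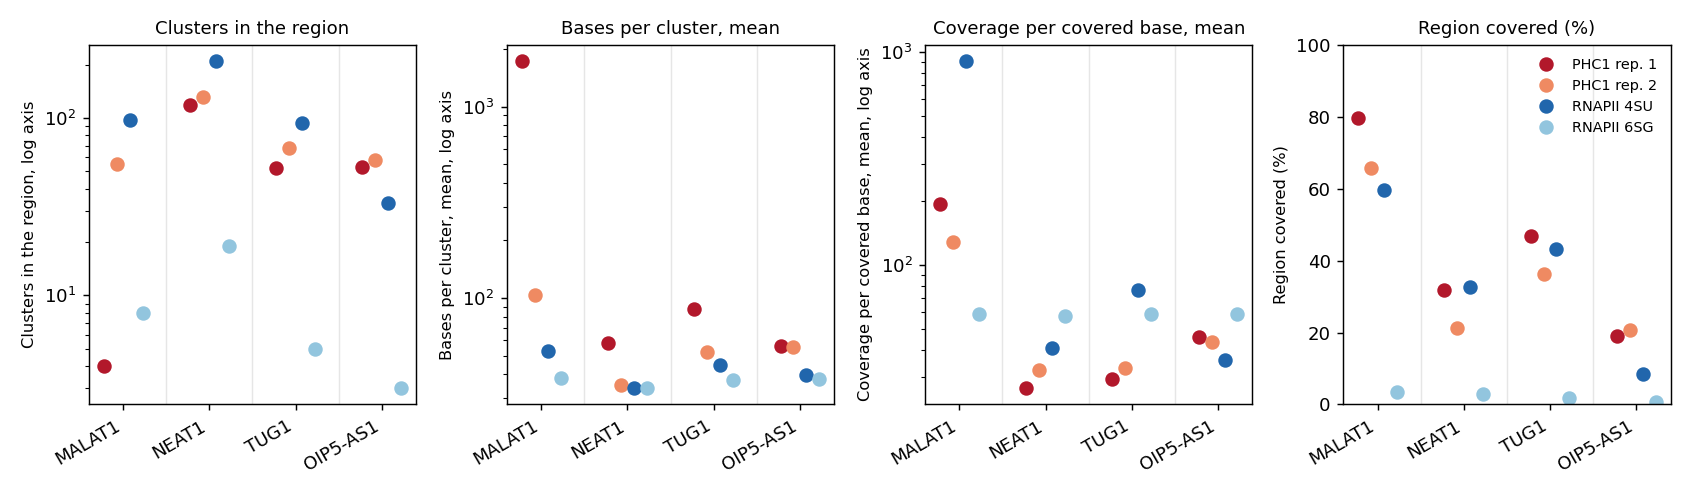
Clusters per region, mean bases per cluster and mean coverage per covered base (log axes), and percent of the region covered, for the 4 RNAs; each point is 1 library. MALAT1 in PHC1 replicate 1 has 4 clusters of 1730 bases on average, against 55 clusters of 104 bases in replicate 2, while the covered shares are 79.5% and 65.7%.

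Against the 4SU library, the components moved differently for MALAT1 and OIP5-AS1. For MALAT1 the log2 ratio of PHC1 to 4SU in depth was -2.24 in replicate 1 and -2.81 in replicate 2, and in width 5.03 and 0.98. For OIP5-AS1 the ratios were 0.68 and 0.81 in number, 0.49 and 0.48 in width and 0.36 and 0.29 in depth, so the sum was 2.88 times the 4SU value in replicate 1. The median gene had a ratio of -0.67 in depth and -0.70 in the sum for replicate 1. Raw coverage is not scaled to library depth, so these ratios are read against the median gene.

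With 4SU, RNAPII on MALAT1 included a few very deep and narrow clusters, although its clusters had a mean width of 52.8 bases, above the 35.6 bases of the median gene. With 6SG no MALAT1 cluster exceeded a mean coverage of 112. In the 4SU library 30 of the 98 clusters were at most 20 bases wide, and they held 46.2% of the MALAT1 summed coverage. The deepest had 12 bases at a mean coverage of 33815, 2079 bases after the region start, and another 12 bases at 29396, 1888 bases after it. In PHC1 replicate 2 clusters of at most 20 bases held 2.15% and those over 200 bases 46.3%. In replicate 1 clusters over 200 bases held 99.7%. Clusters of at most 20 bases held 2.84% to 6.90% of the NEAT1 coverage over the 4 libraries, 0% to 11.8% for TUG1 and 0% to 1.51% for OIP5-AS1.

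Coverage along MALAT1 began at the same base in both PHC1 libraries, 1286 bases after the region start, and no base before it was covered. In the 4SU library clusters lay at bases 26 to 53 and 313 to 324, and bases 325 to 1285 were uncovered. With 6SG a cluster lay at bases 1162 to 1212, before the first base covered in PHC1. The RefSeq distance of 1307 bases between the 2 starts belongs to another build, and the positions were not lined up base by base. In 10 equal parts of the region, the third held 34.2% and 32.5% of the PHC1 coverage and 44.8% of the 4SU coverage. The share in the first 4 kb, which is 45.9% of the region, was 70.1% and 59.4% for PHC1, 75.7% for 4SU and 6.29% for 6SG. The 6SG library had 8 clusters on MALAT1, and 40.2% of its coverage lay in 1 cluster near the 3′ end, 7984 bases after the start.

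NEAT1 coverage was also raised toward the 5′ end. The first of 10 equal parts held 21.9% and 23.2% for PHC1, 26.3% for 4SU and 49.1% for 6SG. The other 9 parts each held between 4.42% and 14.0% in the PHC1 libraries, so clusters reached the 3′ end of the long region. The deepest NEAT1 cluster of PHC1 replicate 2 had 51 bases at a coverage of 302, at bases 65191155 to 65191205. A cluster of 870 bases in replicate 1 ended at the same base. The top clusters of the RNAPII libraries ended together as well, at base 65191874 with 4SU and with 6SG, 1605 bases after the region start.

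TUG1 coverage was spread over its region, with 53.9% and 52.0% for PHC1 and 50.3% for 4SU in the first 4 kb, which is 41.0% of the length. The fifth of 10 equal parts was low in both PHC1 libraries and with 4SU, with 2.35% and 2.55% for PHC1 and 1.71% for 4SU. The end parts were low too. The first held 4.90% and 2.85% for PHC1 and 1.52% for 4SU, and the last 3.25%, 2.77% and 3.41%. With 6SG, which had 5 clusters, the fifth part held 0%, as did others. The last 609 and 593 bases of TUG1 had no PHC1 cluster.

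On OIP5-AS1 the clusters that held most coverage differed between PHC1 and RNAPII, although PHC1 and 4SU had clusters at each other's main places. The fifth of 10 equal parts held 26.7% and 30.4% of the PHC1 coverage, against 11.8% with 4SU and 0% with 6SG. In the first part PHC1 had 1.09% and 0.960%, 4SU 16.5% and 6SG 9.38%. A PHC1 cluster of 51 bases at a coverage of 275 in replicate 1 lay 7141 bases after the start, and a cluster of 45 bases at 433 lay inside it in replicate 2. Another lay near the 3′ end, 62 bases at 213 and 68 bases at 173, both ending 15238 bases after the start. The top RNAPII clusters lay at 2051 bases with 4SU and at 14226 bases with 6SG. PHC1 replicates 1 and 2 also had clusters at these places, at a coverage of 16.6 and 21.2 at the first and 25.5 and 11.3 at the second. The 4SU library had a cluster of 51 bases at 49.0, 7141 bases after the start. The 6SG shares rest on 3 clusters. The difference by position was not tested.

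**Figure D2:**
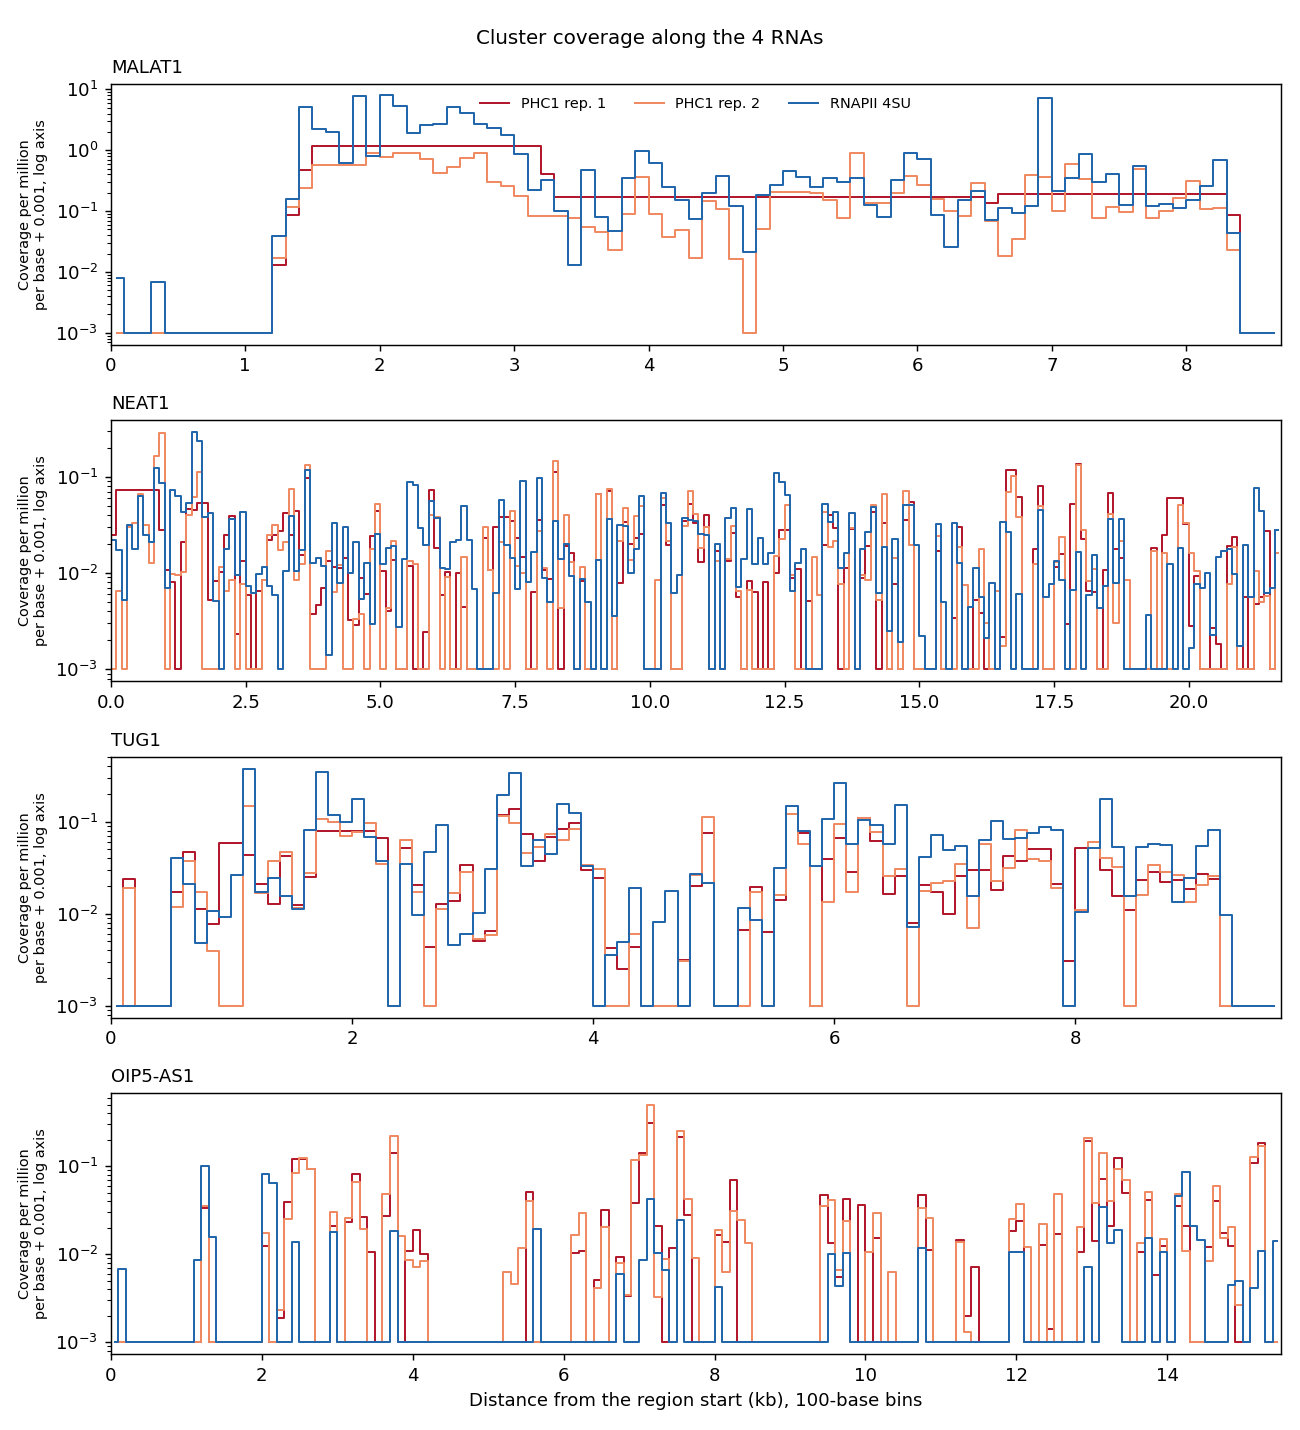
Cluster coverage per base, per 1e6 of the library's total within the table regions, plus 0.001 (log axis). Values are in 100-base bins against distance from the region start in kb, for the PHC1 libraries and RNAPII with 4SU. The sparse 6SG library is left out. On MALAT1 the PHC1 lines leave the floor 1286 bases after the start, and on OIP5-AS1 both PHC1 lines peak near 7141 bases, where 4SU is lower.

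Clusters were compared base by base on the plus strand. On NEAT1, 55.2% of the bases covered in PHC1 replicate 1 were covered in replicate 2 and 57.7% in the 4SU library, which covered more of the region (32.6% against 21.2%). On TUG1 the shares were 70.9% and 68.4%. On OIP5-AS1 they were 82.9% and 32.4%. Across 100-base bins of OIP5-AS1 (n = 155 bins) Spearman's rho was 0.868 between the PHC1 replicates, and 0.410 and 0.407 between each and 4SU. On MALAT1 (87 bins) it was 0.765 between the PHC1 replicates and 0.800 and 0.859 with 4SU. On TUG1 (97 bins) it was 0.862, 0.723 and 0.760, and on NEAT1 (217 bins) 0.735, 0.493 and 0.487. Neighbouring bins can share a cluster, bins share base composition and empty bins are included, so these values are descriptions. The share of PHC1 bases found with 4SU on OIP5-AS1 is limited by the 8.43% of the region that 4SU covered. In the other direction, 68.0% and 68.1% of the 4SU bases on OIP5-AS1 were covered in PHC1 replicates 1 and 2, against 56.3% and 41.6% on NEAT1, so the order of these 2 RNAs turned with the direction. No difference between the RNAs was tested.

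In nuclear RNA MALAT1 had 34569 and 50159 reads in replicates 1 and 2, or 84.1 and 116 CPM per kb of region, ranks 62 and 45 of 14432 genes. TUG1 had 8831 and 10696 reads (19.2 and 22.1 per kb), OIP5-AS1 3708 and 4076 (5.04 and 5.27 per kb) and NEAT1 4664 and 5053 (4.54 and 4.68 per kb). The median gene had 0.569 and 0.568. The order per kb was the same in both libraries, and the values of neighbouring RNAs did not overlap. The MALAT1 replicates differed by 0.46 on the log2 scale, the fifth largest gap of 6861 genes with at least 1000 reads in both libraries, whose robust SD was 0.069. TUG1 differed by 0.20, OIP5-AS1 by 0.06 and NEAT1 by 0.04. MALAT1 was therefore the least repeatable of the 4 in summed PHC1 coverage and in nuclear RNA amount. By position along the RNA NEAT1 repeated less well, with a rho between PHC1 replicates of 0.735 against 0.765 for MALAT1.

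Read against nuclear RNA per kb, the 4 RNAs were covered by PHC1 more than most genes with as much RNA. Of 52 genes with at least the MALAT1 level, 0 had at least its mean covered share of 72.6%, and their median share was 23.8%. Of 414 genes with at least the TUG1 level, 14 reached its 41.6%, with a median of 13.1%. Of 2114 genes with at least the NEAT1 level, 84 reached 26.5%, with a median of 7.21%. Of 1910 genes with at least the OIP5-AS1 level, 210 reached 19.8%, with a median of 7.48%. RNAPII with 4SU covered 59.5% of MALAT1, 43.2% of TUG1, 32.6% of NEAT1 and 8.43% of OIP5-AS1. High shares on MALAT1, TUG1 and NEAT1 were therefore not particular to PHC1. Genes with as much RNA were not counted in this way for RNAPII. Introns count in the length of most of these genes, so the shares describe regions, not transcripts.

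**Figure D3:**
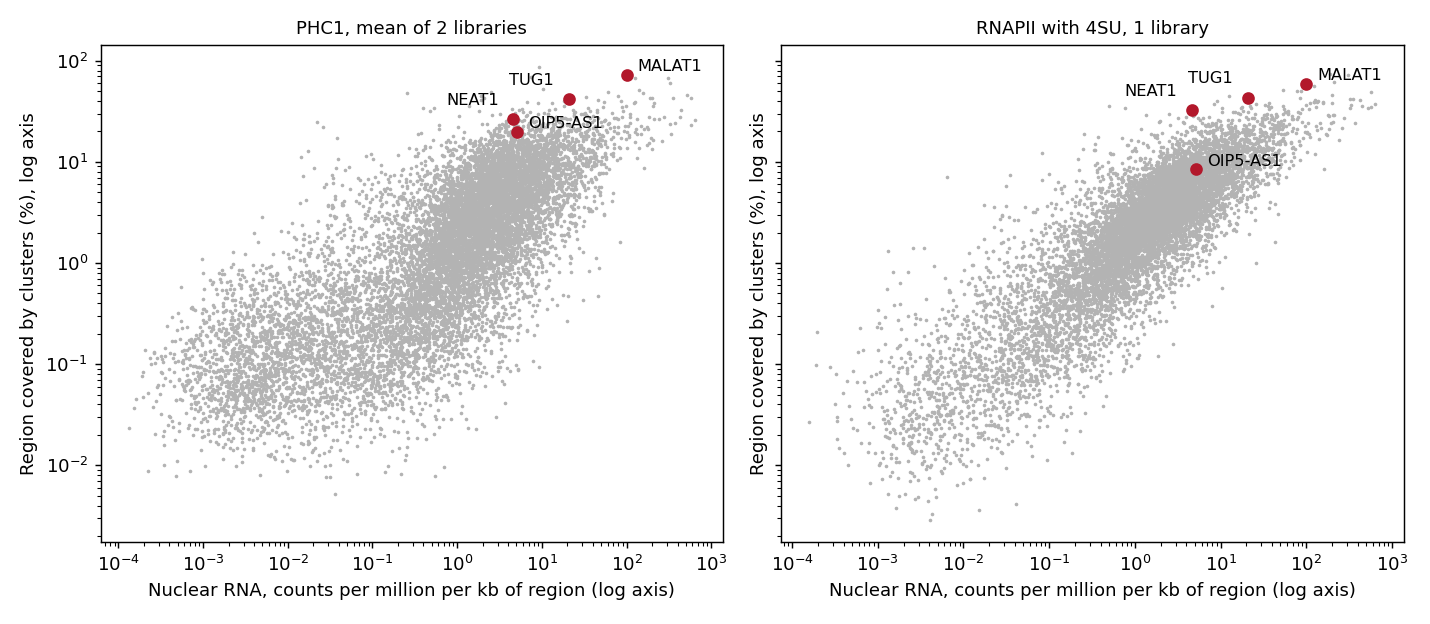
Percent of the region covered by clusters against nuclear RNA in CPM per kb (log axes) for genes with RNA and a PHC1 cluster, for PHC1 (mean of 2 libraries) and RNAPII with 4SU (1 library); each grey point is a gene, red points are the 4 RNAs. For PHC1 no gene with as much RNA as MALAT1 has its covered share, and 14 of 414 reach that of TUG1, while OIP5-AS1 lies inside the cloud, with 210 of 1910 genes reaching its share.

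The first comparison asks whether PHC1 PAR-CLIP held more or less of an RNA than nuclear RNA-seq did. Values are per 1e6 of each library's total within the table regions, not of the whole library, after TMM scaling. They were tested with limma on log2 of the value plus 1. OIP5-AS1 had 361 and 387 in PHC1 replicates 1 and 2 and 69.4 and 72.3 in RNA, and rose by a log2 fold of 2.38 ± 0.0707 (SE, limma adjusted p = 0.000137). NEAT1 had 488 and 406 in PHC1 and 87.3 and 89.6 in RNA, a log2 fold of 2.32 ± 0.110 (limma adjusted p = 0.000211). MALAT1 had 3544 and 2024 in PHC1 and 647 and 889.9 in RNA, a log2 fold of 1.82 ± 0.333 (limma adjusted p = 0.00845). TUG1 had 355 and 319 in PHC1 and 165 and 189.8 in RNA, a log2 fold of 0.92 ± 0.104 (limma adjusted p = 0.00188). For each of the 4 RNAs both PHC1 values lay above both RNA values. How many of all genes did so was not counted, so this does not set the 4 apart.

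All 4 were thus called higher in summed coverage, where 35.5% of the 9362 genes tested were called higher and 47.1% lower. The median log2 fold was 2.07 for the 4 and -0.33 for all genes tested, and by rank from the highest fold OIP5-AS1 was 885, NEAT1 939, MALAT1 1363 and TUG1 2445. With library totals in place of TMM factors the median over all genes moved to -0.72, and the 4 folds were 2.02, 1.96, 1.46 and 0.56 in the order above. The MALAT1 call was lost when any of the 4 libraries was left out, with log2 folds from 1.41 to 2.25. Its limma adjusted p was then 0.151 without PHC1 replicate 1, 0.0909 without PHC1 replicate 2, 0.251 without RNA replicate 1 and 0.194 without RNA replicate 2. These p-values rest only on the spread between libraries, and that spread may be technical.

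With other measures of PAR-CLIP the direction for MALAT1 turned. By covered bases NEAT1 and OIP5-AS1 stayed higher, with log2 folds of 1.66 and 1.11, MALAT1 was lower at -1.27 (limma adjusted p = 0.00578) and TUG1 was at 0.18 (limma adjusted p = 0.367). By this measure 31.8% of 9536 genes were called higher and 49.9% lower. Covered bases cannot pass the region's length, and MALAT1 was already 79.5% and 65.7% covered. By cluster number NEAT1 and OIP5-AS1 were higher at 1.71 and 0.85, TUG1 was lower at -0.36 (edgeR adjusted p = 0.0405) and MALAT1 was at -3.50 (edgeR adjusted p = 0.0658). Both calls turned with the tool: with DESeq2 on the same numbers TUG1 was at -0.30 (adjusted p = 0.0923) and MALAT1 lower at -3.40 (adjusted p = 0.0128). Of 9530 genes edgeR called 35.1% higher and 41.0% lower, and DESeq2 called 36.4% higher and 37.2% lower. NEAT1 and OIP5-AS1 were higher by all 3 measures; MALAT1 and TUG1 were called higher by summed coverage alone.

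The second comparison asks whether an RNA was taken up more by PHC1 than by RNAPII. OIP5-AS1 had 347 and 372 in PHC1, 73.3 in RNAPII with 4SU and 107 with 6SG, and its log2 fold was 2.01 ± 0.353 (limma adjusted p = 0.147). NEAT1 had 469.6 and 390.3 in PHC1, 451 with 4SU and 598 with 6SG, and a log2 fold at -0.28 ± 0.302 (limma adjusted p = 0.599). TUG1 had 341 and 307 in PHC1, 499.8 with 4SU and 177 with 6SG, and a log2 fold at 0.12 ± 0.599 (limma adjusted p = 0.908). MALAT1 had 3409.9 and 1947 in PHC1, 7309 with 4SU and 291 with 6SG, and a log2 fold at 0.82 ± 1.71 (limma adjusted p = 0.778). The RNAPII libraries enclosed both PHC1 values for MALAT1 and TUG1, and lay below both for OIP5-AS1. How many of all genes did the same was not counted. The median log2 fold of all 8435 genes tested was 0.59, so TUG1 and NEAT1 lay below the median gene. By rank from the highest fold OIP5-AS1 was 1754, MALAT1 3785, TUG1 5155 and NEAT1 5907.

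None of the 4 RNAs passed the threshold, nor did any other gene: limma called 0% of 8435 genes in either direction. At an unadjusted p under 0.05 it had 1195 genes higher and 649 lower, edgeR on cluster numbers called 1532 higher and 1282 lower of 9567 (16.0% and 13.4%), and DESeq2 called 2 and 1 (0.0209% and 0.0105%). On simulated data with known changes the limma fit made no call here either, so its 0 does not show that genes did not differ. By cluster number OIP5-AS1 was higher at a log2 fold of 0.93 (edgeR adjusted p = 0.0104) and NEAT1 lower at -0.57 (edgeR adjusted p = 0.0350). DESeq2 on the same numbers called neither, with 0.86 for OIP5-AS1 (adjusted p = 0.999) and -0.67 for NEAT1 (adjusted p = 0.990).

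The RNAPII libraries differ in nucleoside and in cluster number, so each was also used as the only control, assumed to vary like the PHC1 pair. Against 4SU, OIP5-AS1 was higher at a log2 fold of 2.28 (limma adjusted p = 8.29e-13) and TUG1 lower at -0.63 (limma adjusted p = 0.00235). MALAT1 was at -1.50 (limma adjusted p = 0.286) and NEAT1 at -0.07 (limma adjusted p = 0.729). Of 8037 genes, 33.7% were called higher and 28.0% lower. Against 6SG, OIP5-AS1 was higher at 1.71, TUG1 higher at 0.84 and NEAT1 lower at -0.51 (limma adjusted p = 3.62e-10, 0.000130 and 0.00868), and MALAT1 was at 3.12 (limma adjusted p = 0.0902). Of 7937 genes, 54.6% were called higher and 23.3% lower, and all genes had a median log2 fold of 0.84. OIP5-AS1 was higher against either library, and the sign for MALAT1 and TUG1 differed between the 2 controls.

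**Figure D4:**
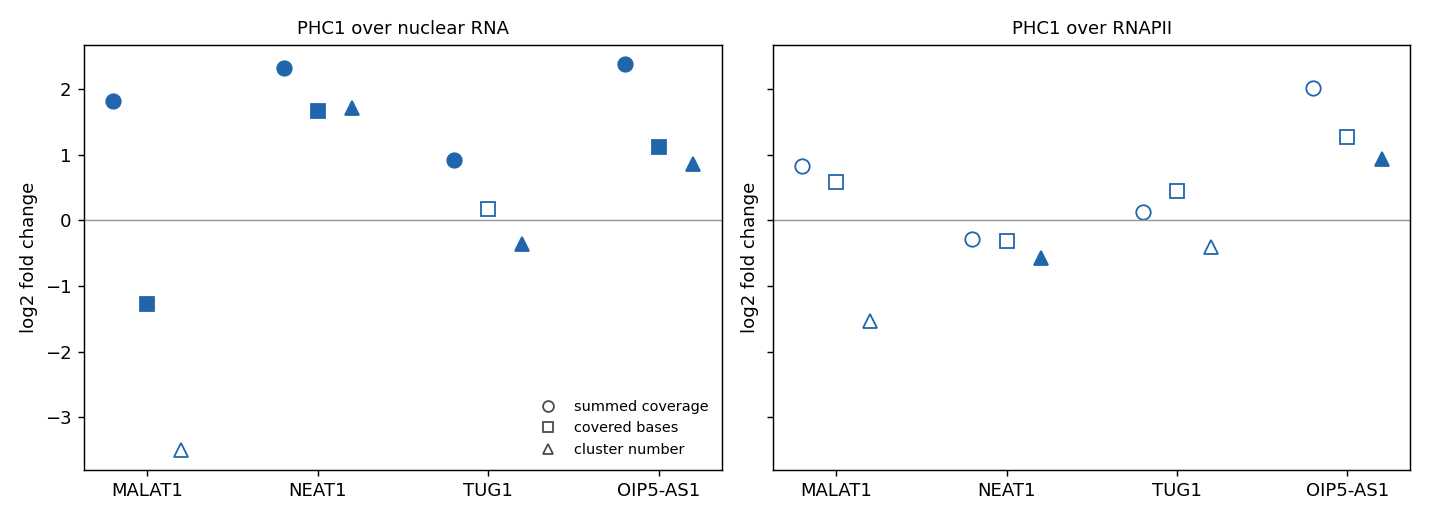
Log2 fold change of PHC1 over nuclear RNA (left) and over RNAPII (right) for the 4 RNAs by summed coverage, covered bases and cluster number; filled symbols passed an adjusted p of 0.05 (limma for the first 2 measures, edgeR for cluster number). For MALAT1 over nuclear RNA the value runs from 1.82 by summed coverage to -3.50 by cluster number, while NEAT1 and OIP5-AS1 keep their sign.

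Genes of the bodies that these RNAs belong to, and their neighbours, were read in the comparison with nuclear RNA by summed coverage, against the background of 35.5% higher and 47.1% lower. Of 18 listed paraspeckle protein genes 9 were in the tables and tested, 6 were higher and 1 lower, with a median log2 fold of 1.15. TAF15, an RNA-binding protein, was higher at 2.43 ± 0.0974 (limma adjusted p = 0.000161). NUDT21, a subunit of the cleavage factor for polyadenylation, was lower at -1.70 ± 0.0640 (limma adjusted p = 0.000139). These are the RNAs of the protein genes, not the proteins.

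Of 5 speckle scaffold genes tested, 4 were higher and 1 lower, and the median was 1.11. SRRM1 and PNN, both splicing-associated proteins, were higher at 1.89 ± 0.176 and 1.23 ± 0.249 (limma adjusted p = 0.00109 and 0.0114). Of 870 genes that passed the filter on low values through PHC1 alone 858 were called higher, and of 1130 that passed through RNA alone 1103 were called lower, so such genes are left out of the next counts; of the 7362 genes that passed through both groups, 33.4% were higher and 44.9% lower. The 4 RNAs and the tested genes of the paraspeckle and speckle lists all passed through both. Of 4 other named long noncoding RNAs that passed through both, 2 were higher and 2 lower, and the median was -0.24. LINC-PINT and FIRRE, the latter a nuclear RNA from the X chromosome, were higher at 1.17 ± 0.0779 and 0.65 ± 0.0697 (limma adjusted p = 0.000394 and 0.00160). CRNDE and NORAD, the latter a mostly cytoplasmic RNA that binds Pumilio proteins, were lower at -2.77 ± 0.186 and -1.14 ± 0.172 (limma adjusted p = 0.000451 and 0.00457). Of 116 genes that RefSeq types as lncRNA and that passed through both groups, 49 were higher and 32 lower, and the median was 0.23; 65 more passed through PHC1 alone and 52 through RNA alone.

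Of 6 genes that neighbour the 4 RNAs and passed through both groups, 4 were higher and 1 lower, and the median was 0.85. NUSAP1, a spindle protein gene near OIP5-AS1, was higher at 2.58 ± 0.0850 (limma adjusted p = 0.000137), and SMTN, a smooth muscle cytoskeleton gene, was lower at -2.14 ± 0.184 (limma adjusted p = 0.000871). EXD1, another neighbour, passed through PHC1 alone, with 5 and 4 clusters and 0.657 and 0.544 CPM of RNA, and its fold is not counted. No difference between these lists and other genes was tested.

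The genes closest in pattern over the 6 PAR-CLIP and RNA libraries were found by Euclidean distance between centred log2 values, over 9517 genes. For OIP5-AS1 they were TM2D1 (0.28), UBE2V2 (0.29) and ZNF789 (0.33), and for NEAT1 TEX22 (0.32), TCF25 (0.34) and CSNK1D (0.36). For TUG1 they were TMEM79 (0.29), ZNF175 (0.31) and RBM33 (0.33). For MALAT1 they were CHAC1 (0.52), HNRNPA3P1 (0.60) and RAB40AL (0.75), which had at most a scaled 1.40 in RNA, so no gene near the level of MALAT1 was among its closest. The median distance of all genes was between 3.07 and 4.34.

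At promoters, the deposited ChIP values gave reads around each transcription start, which were compared with the input; each target has 1 library, and intervals are exact 95% intervals that cover counting error only. H3K4me3, a mark of active promoters, had 166 reads at MALAT1, 292 at NEAT1, 267 at TUG1 and 234 at OIP5-AS1, against 12, 22, 28 and 21 input reads. Scaled to library size this was 12.5 times the input at MALAT1 (6.96 to 24.6), 12.0 at NEAT1 (7.76 to 19.4), 8.60 at TUG1 (5.82 to 13.2) and 10.1 at OIP5-AS1 (6.43 to 16.6). RNAPII had 54, 107, 64 and 80 reads in the same order, or 5.36 (2.83 to 11.0), 5.79 (3.63 to 9.63), 2.72 (1.72 to 4.41) and 4.54 (2.78 to 7.72) times the input. NEAT1 had more RNAPII after input subtraction than 96.3% of genes, MALAT1 than 75.7%. NEAT1 thus stood above the others in RNAPII after input subtraction, while in nuclear RNA per kb of region MALAT1 was highest and NEAT1 lowest. The intervals of the ratio to input overlapped between MALAT1 and NEAT1, so their order at the promoter was not resolved. By nuclear RNA reads, not per kb, OIP5-AS1 was lowest.

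EZH2, the H3K27 methyltransferase, had 17, 18, 17 and 16 reads at MALAT1, NEAT1, TUG1 and OIP5-AS1, and every interval of its ratio to input included 1. The H3K27me3 mark had 13, 18, 12 and 12 reads. Its ratio at TUG1 was 0.386 (0.179 to 0.783), below the input, and the intervals of the other 3 included 1. The median gene lay below the input as well, at -1.37 after input subtraction, where TUG1 was at -4.44, above 6.40% of genes. For EZH2 the median gene was at -0.0176. At this depth no EZH2 or H3K27me3 above input was detectable at the 4 promoters. The PHC1 ChIP columns join 2 replicates into the authors' value, with no SD or n here. The authors' value for PHC1 was 2.72 at MALAT1, above 96.0% of genes, 1.31 at NEAT1, -1.41 at TUG1 and 1.68 at OIP5-AS1, with a median gene at 0.07. Before the input was subtracted PHC1 stood at 5.82, 6.99, 5.82 and 7.10 in that order, so MALAT1 and TUG1 had the same value and differed in their input, 12 and 28 reads. In the same way EZH2 at MALAT1 stood above 26.3% of genes before and 83.3% after subtraction. For PHC1-dFCS the authors' value was 2.55, 2.28, 2.69 and 0.06 in that order, with a median of 1.13. TUG1 ranked low with PHC1 (18.0% of genes below) and high with PHC1-dFCS (82.7%), and OIP5-AS1 the reverse (85.9% and 25.4%); with no replicate values these differences were not tested. Before subtraction PHC1-dFCS stood at 9.92 at TUG1 and 5.48 at OIP5-AS1. Between 12 and 28 input reads lie behind each of these subtracted values.

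**Figure D5:**
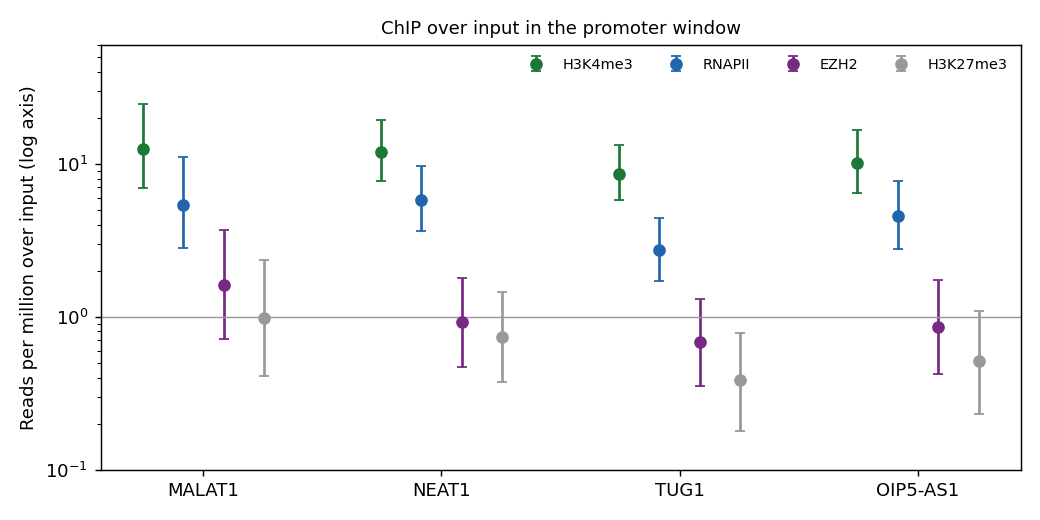
ChIP reads over input at the transcription start, scaled to library size (log axis), for H3K4me3, RNAPII, EZH2 and H3K27me3; points are ratios of 1 library to 1 input and bars are exact 95% intervals for counting error. H3K4me3 lies between 8.60 and 12.5 and RNAPII between 2.72 and 5.79 at the 4 promoters, while EZH2 intervals cross 1.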

How the data were processed

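PAR-CLIP, nuclear RNA-seq and ChIP-seq of HEK293T T-REx cells were used; the members and gene lists were chosen with earlier results of these data known. The submitters' processing notes name hg19, TopHat2 2.0.11 (RNA-seq), Bowtie2 2.2.3 (ChIP-seq) and Bowtie 0.12.7 (PAR-CLIP), and R 3.2.2 for PHC1 and 3.1.0 for RNAPII PAR-CLIP. The cluster caller, RNA counter and TSS window are not given in the sources used here.

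The deposited RNA table holds read counts per gene, from a stranded kit after ribosomal RNA removal per the labels; its further log2-scale column by the authors was not used for levels. The deposited PAR-CLIP signal is the authors' mean coverage per cluster, and its product with width was whole in 100.0% of clusters (tolerance 0.0001). The deposited ChIP score of EZH2, H3K27me3, H3K4me3 and RNAPII was found to equal a whole read number scaled to library size minus that of the input, in 100.0% of genes (tolerance 1e-08). The other deposited scores, for PHC1 and PHC1-dFCS, pool 2 replicates.

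Clusters on either strand were given to the table region that holds their midpoint. Sums were scaled with TMM factors (edgeR 4.0.16) and tested with limma 3.58.1, 2-sided, with trend and robust empirical Bayes, on log2 of the scaled value (units of 1e6) plus a pseudocount of 1, which understates folds of low genes. Genes needed a scaled value of 5 in 2 libraries, and Benjamini-Hochberg adjusted p-values had a threshold of 0.05. The design foresaw count tests; sums of coverage are no counts, so edgeR and DESeq2 1.42.0 were run on cluster numbers. The fits were tested on simulated data with known changes. Of each list, the 2 highest and 2 lowest called genes were named, and for each member the 3 closest genes; some genes that this rule selects are not reported here. Alternatives covered scaling, filter, pseudocount, strand, measure and left-out libraries. Nothing in the labels says that replicates came from separate cultures.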

Additional observations from a re-analysis of the deposited data

Results flagged for a closer look

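Every cluster on MALAT1, NEAT1 and TUG1 lay on the plus strand in all 4 PAR-CLIP libraries, but OIP5-AS1 also held clusters on the minus strand in PHC1 alone. PHC1 replicate 1 had 3 and replicate 2 had 4 such clusters, against 0 in RNAPII with 4SU and 0 with 6SG. They drew attention because they are a signal outside the sense measurement that the control libraries lack. They held 9263 of the summed coverage in replicate 1 and 6093 in replicate 2, so that 93.2% and 95.7% of the OIP5-AS1 coverage was on the plus strand. At 1 place the replicates met, on chromosome 15 (hg19): the replicate 1 cluster spanned bases 41589511 to 41589633, the replicate 2 cluster bases 41589583 to 41589633, at a coverage of 30.5 and 34.6. Each minus-strand cluster of replicate 1 lay inside a plus-strand cluster of the same library. Coverage was 36.8, 101 and 30.5 on the minus strand, against 31.7, 86.5 and 30.4 on the plus strand. In replicate 2 the minus-strand clusters at 97.8 and 20.7 lay inside plus-strand clusters at 114 and 20.3. That at 34.6 overlapped plus-strand clusters, and that at 9.95 did not. Whether they are RNA separate from the sense signal was not tested. The 6SG library had only 3 OIP5-AS1 clusters in all. The difference from RNAPII was not tested.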

How the results depend on the processing

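Over nuclear RNA, the count of genes higher was 3319 and was 2830 to 3021 when a library was left out; the count lower was 4408 and ran from 2779 to 5097, with 2779 without RNA replicate 1 and 2780 without RNA replicate 2. Leaving out libraries gave log2 folds of 1.41 to 2.25 for MALAT1, 2.18 to 2.48 for NEAT1, 0.82 to 1.03 for TUG1 and 2.35 to 2.43 for OIP5-AS1. MALAT1 turned to -3.50 by cluster number with edgeR, -3.40 with DESeq2 (adjusted p = 0.0128) and -1.27 by covered bases; TUG1 gave -0.36, -0.30 (DESeq2 adjusted p = 0.0923) and 0.18. Over RNAPII, counts moved from 0 and 0 to 1532 and 1282 with edgeR and to 2 and 1 with DESeq2 on cluster numbers, and to 0 to 4333 higher (4333 without 4SU, 2707 without 6SG, 4 without PHC1 replicate 2) and 0 to 2248 lower (2248 without 6SG, 1853 without 4SU) when a library was left out. MALAT1 turned to -1.53 and -1.58 on cluster numbers and to -0.10 without the top cluster of each gene, and ran from -1.50 to 3.12 with a library left out. NEAT1 was -0.57 with edgeR and -0.51 to -0.07 with a library left out. TUG1 turned to -0.13 with library totals, -0.41 and -0.31 on cluster numbers, -0.02 without top clusters and -0.39 by mean coverage, and ran from -0.63 to 0.84. DESeq2 called neither NEAT1 nor OIP5-AS1 (adjusted p = 0.990 and 0.999). OIP5-AS1 was 0.93 with edgeR and 1.71 to 2.28 with a library left out. The cause was not tested.

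With the replicate block over nuclear RNA the counts were 3255 and 4423 and no call of the 4 RNAs changed; same-numbered PHC1 and RNA libraries had a correlation of deviations of 0.0362 over 2 pairs, so the numbers do not pair them. No paired analysis was possible for RNAPII because each nucleoside has a single library. NEAT1 has no strand in the table and no sense-strand value. Sharing 50.0% or more of a cluster instead of 1 base moved 3 of 16 overlap shares beyond their 95% interval, and H3K27me3 at MALAT1 stood above 9.80% of genes before and 75.2% after input subtraction. Input of 12 to 28 reads per promoter and 45259 clusters in the 6SG library limit what these values can show.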

Other observations

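Clusters within 5 kb of each region were counted by strand. These flanks can hold other genes, and clusters of such genes were not set apart. The counts therefore need not be RNA of the 4 genes or of their promoters. Upstream of TUG1 there were 17 and 22 minus-strand clusters in PHC1, 24 in RNAPII with 4SU and 1 with 6SG, against 1, 4, 6 and 1 on the plus strand, so most upstream clusters of PHC1 and of RNAPII with 4SU lay on the strand opposite to TUG1. Upstream of MALAT1 no library had a cluster, and downstream of it there were 1 and 1 in PHC1, 3 with 4SU and 0 with 6SG, so clusters outside the region were few. Downstream of NEAT1 the plus strand had 6 and 3 clusters in PHC1, 10 with 4SU and 2 with 6SG. Upstream of OIP5-AS1 PHC1 had 9 and 8 plus-strand clusters where both RNAPII libraries had 0, and downstream PHC1 had 11 and 9, 4SU 6 and 6SG 0. The coverage of these plus-strand flanks per base was 1.18 and 0.907 upstream of OIP5-AS1, against 8.72 and 9.07 over the region.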
